A study of Gallus gallus with 4 samples.

Results

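The genes described here encode the machinery of mitochondrial oxidative phosphorylation. They were chosen by symbol, as genes that begin with NDUF, SDHA to SDHD, UQCR, COX followed by a number, or ATP5, and whose array probes could be named through their accession. Of 99 such genes in the reference gene table, 41 had a named probe and 58 did not and were not analysed here. All 88 probes of the 41 genes were well above background in all 4 pools, so 41 of the 4807 named genes measured are covered and no member was lost to the filter on dim probes. They comprise 32 subunits, with 15 of complex I, 3 of complex II, 3 of complex III, 5 of complex IV and 6 of complex V, and 9 assembly or coupling factors.

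Gene expression was measured in chick tissue from the back of the eye on 1-colour arrays (Cy3), with 1 array per group and no replicate array. The 4 groups combined goggle and light: covered by a glass goggle with violet light, covered with normal light, uncovered with violet light, and uncovered with normal light. In every chick the right eye received the goggle 6 days after hatching, as a way to induce myopia, and the left eye of the same chick stayed uncovered. All chicks were kept for 7 days with 12 hours of light per day, violet light being given in the same cycle, and tissue was taken on day 13 as a button 6 mm wide beside the optic nerve. RNA of 4 eyes was mixed into each pool, from 16 eyes of 8 chicks. Covered and uncovered eyes of one light thus come from the same animals, whereas the light comparison is between different animals. The titles call the tissue retina and the protocol calls it a chorioretinal button, so choroid is included.

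Oxidative phosphorylation passes electrons from NADH through complex I, or from succinate through complex II, to complex III and then to complex IV, where oxygen is reduced. The protons pumped on the way drive complex V, the ATP synthase. Photoreceptors pack their inner segments with mitochondria and use much of the retina's oxygen. Apart from complex II, each complex joins subunits encoded in the nucleus with others encoded in mitochondrial DNA; the members described here are encoded in the nucleus.

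The question of the design is how goggle wear and violet light alter expression. Levels are given as log2 of the processed signal relative to the 75th percentile of the same array, and a difference between pools is a log2 difference of these levels. With 1 pool per group there is no error between animals and no p-value can be given. For scale, the SD of such a difference among the 31 probes printed 5 times was 0.0644, which covers spot error alone, and a difference is called beyond spot error when it exceeds 2 of these SDs (0.129). The signal at the 75th percentile was 876 for covered violet light, 793 for covered normal light, 1317 for uncovered violet light and 2095 for uncovered normal light. Across all probes the uncovered normal-light pool correlated at 0.9797 to 0.9884 with the others, against 0.9877 to 0.9926 among the other 3 pools. The ranges overlap: it correlated least with the covered pools (0.9797 and 0.9821) and at 0.9884 with the uncovered violet-light pool. Markers of the expected cells were present: the levels of 10 photoreceptor markers (of 15 listed) summed to 389 and 355 in the covered violet-light and covered normal-light pools and to 356 and 306 in the uncovered violet-light and uncovered normal-light pools, on a linear scale where 1 is the array's 75th percentile. Gene by gene, the photoreceptor markers did not all follow these sums: their median log2 difference for goggles was 0.162 under violet light and -0.178 under normal light, the last becoming -0.552 after quantile normalization. Under normal light 6 of the 10 lay below 0, with GRK7 (-1.28), CNGA1 (-1.06) and CNGA3 (-1.06) 2-fold lower and OPN1LW (1.51) 2-fold higher. Their part in the subunit differences was not tested. The same sums over 6 pigment epithelium markers (of 8) were 84.2 and 95.1 in the covered pools and 78.2 and 70.7 in the uncovered pools, in the same order of lights. Singly, 3 of these 6 lay above 0 and 3 below for goggles under violet light (median 0.077), with TYR at -1.216. Under normal light 5 lay above 0 and 1 below (median 0.293). For violet light in covered eyes all 6 lay below 0 (median -0.306), and in uncovered eyes 3 lay above and 3 below.

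The labels of 2 arrays are crossed between the deposited sources. Across probes, the covered violet-light column of the authors' value table correlated at 0.99974 with the uncovered normal-light scan and at 0.98153 with its own scan. Its uncovered normal-light column correlated at 0.99921 with the covered violet-light scan and at 0.98125 with its own. The remaining 2 columns, covered normal light and uncovered violet light, fitted their own scans at 0.9995 and 0.99962. Pools are called here by the labels of the scans. If the table's labels are right, each difference given below for goggles under violet light is that for violet light in uncovered eyes with its sign turned, and the other way round, and the same holds for goggles under normal light and violet light in covered eyes. Between the 2 pools whose labels are not disputed, covered normal light minus uncovered violet light, the median log2 difference of the 32 subunits was -0.03 (range -0.29 to 0.18, 13 of 32 above 0), against 0.03 over all 4807 genes.

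With the brightest probe standing for each gene, no oxidative phosphorylation subunit differed 2-fold in any of the 4 comparisons. For goggles under violet light, 0 of 32 subunits were at least 2-fold higher or lower, where 0.395% of all genes were higher and 0.686% lower. For goggles under normal light the count was again 0, where 4.68% of all genes were higher and 1.41% lower. For violet light in covered eyes it was 0 beside 0.0832% of all genes higher and 2.27% lower, and for violet light in uncovered eyes 0 beside 1.23% higher and 1.69% lower. At a log2 difference of 0.5 (1.41-fold) the count of subunits was also 0 in all 4 comparisons. For goggles under normal light this count depended on the setting, with 5 subunits lower when each array was centred on its median (beside 1488 of 4807 genes), 2 higher with the mean of each gene's probes (906 genes) and 4 higher with its dimmest probe (1490 genes). Under violet light in uncovered eyes 1 was higher with the mean of probes (399 genes) and 4 with the dimmest probe (872 genes). At that size, with the reported setting, 3.77% of all genes were higher and 2.27% lower for goggles under violet light, and 15.1% and 9.4% for goggles under normal light. The shares were 1.23% higher and 5.37% lower for violet light in covered eyes, and 6.59% and 6.64% in uncovered eyes. In these pooled tissues, fewer cells of a type and less RNA per cell cannot be told apart.

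The subunits lay close to 0. Goggle wear under violet light gave log2 differences from -0.24 to 0.32 with a median of 0.015, against 0.05 over all genes. Of the 32 subunits, 19 were above 0, beside 58.9% of all genes, and 31 were within 0.25 of 0, beside 74% of all genes. Under normal light the range for goggles was -0.49 to 0.45 with a median of 0.06 (all genes 0.02), 18 of 32 were above 0, beside 51.9%, and 21 of 32 were within 0.25, beside 47.1%. In that comparison 17 of 32 were within 0.25 with the mean of each gene's probes, beside 46.7%, and 14 with median scaling, beside 32%. The shares of all genes include genes dimmer than most subunits. For violet light in covered eyes the range was -0.08 to 0.18, the median 0.05 (all genes 0.03), 25 of 32 were above 0, beside 59.6%, and 32 of 32 were within 0.25, beside 84.8%. For violet light in uncovered eyes the range was -0.23 to 0.44, the median 0.10 (all genes -0.01), 21 of 32 were above 0, beside 48.6%, and 27 of 32 were within 0.25, beside 63.6%. The comparisons that hold the uncovered normal-light pool thus had the wider ranges, and the 2 comparisons without it the narrower ones. Of the 32 subunits, 17 (53.1%) had their lowest level in that pool and 9 (28.1%) their highest, beside 38.4% and 36.3% of all genes. These counts depended on the scaling: 13 were lowest and 9 highest there after quantile normalization, beside 33.1% and 42.9% of all genes, and 4 and 21 with median scaling, beside 16.2% and 65.9%.

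**Figure D1:**
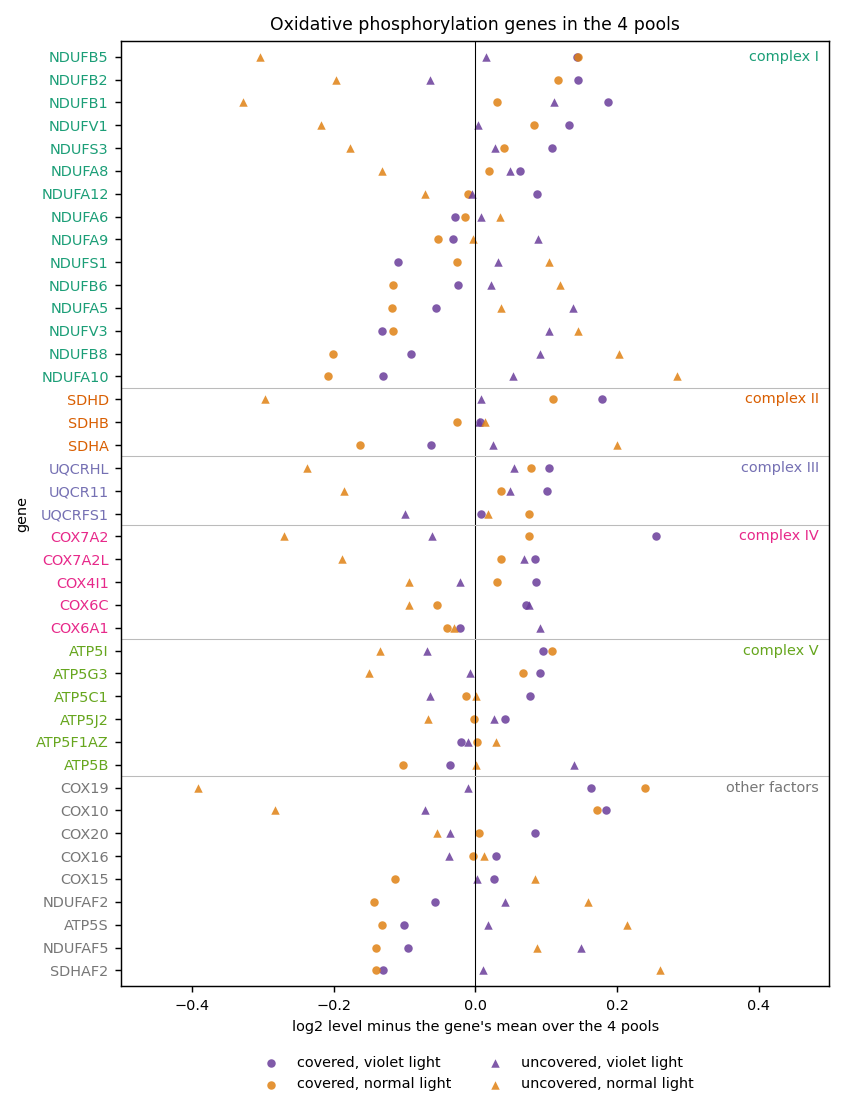
Log2 level of each of the 41 oxidative phosphorylation genes (rows, grouped by complex) in the 4 pools, minus the gene's mean over the pools, with 1 point per pool and no replicates. On this scale the uncovered normal-light pool holds the lowest level for 17 of the 32 subunits, and with median scaling for 4.

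Complex I, the NADH dehydrogenase, held the subunits with the highest and the lowest goggle difference under normal light. NDUFB5, an accessory subunit of the membrane arm, had 4.67 and 4.68 in the covered violet-light and normal-light pools, against 4.55 and 4.23 in the uncovered violet-light and normal-light pools. Both covered pools lay above both uncovered pools, by 0.13 under violet light and 0.45 (1.37-fold) under normal light. NDUFB2, also of the membrane arm, had 4.84 and 4.81 in the covered violet-light and normal-light pools, against 4.63 and 4.50 in the uncovered violet-light and normal-light pools. Its goggle differences were 0.21 and 0.31 under violet and normal light, and it was the complex I subunit with the highest difference under violet light. NDUFB1, another membrane-arm subunit, had 4.39 and 4.23 in the covered violet-light and normal-light pools, and 4.32 and 3.88 in the uncovered pools of the same lights. Its level in the uncovered normal-light pool was the low one, and violet light was 0.16 higher in covered eyes and 0.44 higher (1.36-fold) in uncovered eyes, the largest light difference among the 32 subunits.

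Other subunits of complex I lay below their uncovered pools. NDUFA10, an accessory subunit of the membrane arm, had 2.97 and 2.89 in the covered violet-light and normal-light pools, against 3.16 and 3.39 in the uncovered violet-light and uncovered normal-light pools. Its goggle difference was -0.18 under violet light and -0.49 (0.71-fold) under normal light, the lowest of all subunits, and violet light differed by 0.08 in covered eyes and -0.23 in uncovered eyes. The dimmer probes of NDUFA10 gave -0.05 and -0.23 for goggles under normal light. NDUFB8 had 2.91 and 2.80 in the covered violet-light and normal-light pools, against 3.09 and 3.20 in the uncovered pools, a goggle difference of -0.18 and -0.40. NDUFV3, a small accessory subunit of the NADH-oxidising module, had -1.80 and -1.79 in the covered violet-light and normal-light pools, against -1.57 and -1.53 in the uncovered violet-light and normal-light pools. It had the lowest goggle difference of all subunits under violet light (-0.24; -0.26 under normal light) and was nearly equal between lights in both eyes. NDUFA5, NDUFA6, NDUFA9 and NDUFB6, also accessory, lay below their uncovered pools in both lights, with goggle differences of -0.04 to -0.23, while NDUFA8 and NDUFA12 had 0.01 to 0.15.

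With the brightest probe of each, the core subunits of complex I that were measured did not move together. NDUFV1, which binds the flavin that takes electrons from NADH, had 2.05 and 2.004 in the covered violet-light and normal-light pools, against 1.93 and 1.70 in the uncovered pools of the same lights, a goggle difference of 0.13 and 0.30. NDUFS3, which links the peripheral arm, had 3.07 and 3.001 in the covered pools and 2.99 and 2.78 in the uncovered pools, a goggle difference of 0.08 and 0.22. Its dimmer probe gave -0.19 and 0.14. NDUFS1, the largest iron-sulphur subunit, lay below its uncovered pools, with 2.33 and 2.41 in the covered violet-light and normal-light pools against 2.47 and 2.54 in the uncovered ones. The dimmer probes of NDUFS1 gave -0.09 and 0.42 for goggles under violet light and -0.37 and 1.25 under normal light, so its direction depended on the probe. The dimmer probe of NDUFV1 gave 0.38 and 1.64 under violet and normal light. The goggle differences of the 15 subunits of complex I had medians of -0.04 under violet light and -0.05 under normal light, and 0.05 and 0.09 for violet light in covered and uncovered eyes. With the quantile-normalized values these were -0.06, 0.00, 0.02 and 0.07, so the direction under normal light is not settled. In both lights, 7 of the 15 (46.7%) were higher and 8 (53.3%) lower with goggles, beside 42.7% and 31.9% of all genes.

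Complex II, the succinate dehydrogenase, is encoded wholly in the nucleus, and its 3 measured subunits took different positions. SDHA, the flavoprotein that oxidises succinate, had 2.19 and 2.09 in the covered violet-light and normal-light pools, against 2.28 and 2.45 in the uncovered pools, a goggle difference of -0.09 and -0.36. SDHB, its iron-sulphur partner, was nearly flat with its brightest probe, with levels between 3.17 and 3.21 and differences of at most 0.04 in size. Its dimmer probe gave -0.15 and -0.12 for goggles under violet and normal light, and 0.07 and 0.10 for violet light in covered and uncovered eyes. SDHD, an anchor in the membrane, had 3.003 and 2.93 in the covered violet-light and normal-light pools, against 2.83 and 2.53 in the uncovered pools of the same lights, a goggle difference of 0.17 and 0.41 (1.33-fold under normal light). Under normal light SDHA and SDHD thus lay on opposite sides of 0.

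Complex III, the cytochrome c reductase, was represented by 3 subunits. UQCRFS1, the Rieske iron-sulphur protein, had 3.11 and 3.18 in the covered violet-light and normal-light pools, against 3.01 and 3.12 in the uncovered pools, a goggle difference of 0.11 and 0.06 and a light difference of -0.07 and -0.12. The dimmer probes of UQCRFS1 lay on the other side of 0 for goggles, with -0.19 and -0.14 under violet light and -0.38 and -0.26 under normal light. UQCRHL, a hinge-like subunit, had 3.62 and 3.59 in the covered pools of violet and normal light and 3.57 and 3.28 in the uncovered pools, and its uncovered normal-light level was the low one. UQCR11, a small accessory subunit, also had its lowest level there, with 3.10 and 3.03 in the covered violet-light and normal-light pools, against 3.04 and 2.81 in the uncovered pools. The median over the complex was 0.05 and 0.22 for goggles under violet and normal light, and 0.03 and 0.23 for violet light in covered and uncovered eyes. The goggle medians turned to -0.06 and -0.10 when each array was centred on its median, and that for covered eyes to -0.02 after quantile normalization.

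Complex IV, cytochrome c oxidase, held COX7A2, the subunit with the highest goggle difference under violet light. COX7A2 had 4.67 and 4.49 in the covered violet-light and normal-light pools, against 4.35 and 4.14 in the uncovered violet-light and normal-light pools. The pools did not overlap, with goggle differences of 0.32 (1.24-fold) and 0.35 (1.27-fold) under violet and normal light, and light differences of 0.18 and 0.21 in covered and uncovered eyes. Its 3 probes differed, and the dimmest gave -0.25 and -0.04 for goggles under violet and normal light. COX4I1, the regulatory subunit found in most tissues, had 5.23 and 5.18 in the covered pools and 5.13 and 5.05 in the uncovered pools, in the order of violet and normal light. Its dimmer probe gave -0.14 and 0.01 for goggles, in the same order. COX6A1 lay at 5.30 and 5.28 in the covered pools and at 5.41 and 5.29 in the uncovered ones, and COX7A2L, the supercomplex factor, at 3.42 and 3.37 in the covered pools and at 3.41 and 3.15 in the uncovered ones. The dimmer probes of COX7A2L lay on the other side of 0 for goggles, with -0.14 and -0.25 under violet light and -0.28 and -0.19 under normal light. COX6C, whose levels were 4.93 and 4.81 in the covered pools against 4.94 and 4.77 in the uncovered pools, had light differences of 0.13 and 0.17 in covered and uncovered eyes and goggle differences of at most 0.04 in size. All 5 subunits of complex IV were higher under violet light in both eyes, beside 30.7% of all genes and 59.4% of the subunits. Their medians were 0.055 in covered and 0.17 in uncovered eyes. These medians became -0.004 and 0.04 after quantile normalization, with 2 and 3 of the 5 above 0, and that in uncovered eyes -0.004 with median scaling. With the mean of each gene's probes all 5 stayed above 0 in both eyes. Single dimmer probes lay below 0, at -0.05 (COX7A2) and -0.04 (COX7A2L) in covered eyes and -0.09 (COX7A2L) in uncovered eyes.

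Complex V, the ATP synthase, held subunits on both sides of 0. ATP5F1AZ, the alpha subunit encoded on the Z chromosome, varied between 4.37 and 4.42 over the pools with its brightest probe. Its value is uncertain, as its 6 probes gave goggle differences from -0.03 to 1.27 under normal light. Whether its probes also detect a copy on W was not tested. ATP5B, the beta subunit with the catalytic sites, had 4.16 and 4.10 in the covered violet-light and normal-light pools, against 4.34 and 4.20 in the uncovered pools, a goggle difference of -0.18 and -0.10. The dimmer probes of ATP5B lay on the other side of 0, with 0.09 and 0.10 for goggles under violet light and 0.53 and 0.64 under normal light. ATP5C1, the gamma subunit of the rotating stalk, had 3.77 and 3.68 in the covered pools and 3.63 and 3.69 in the uncovered pools. ATP5G3, of the ring in the membrane, had 4.62 and 4.60 in the covered violet-light and normal-light pools, against 4.52 and 4.38 in the uncovered ones. Its dimmer probes gave -0.11 and 0.10 for goggles under violet light and -0.002 and 0.32 under normal light. ATP5I, the e subunit, had 6.03 and 6.05 in the covered pools and 5.87 and 5.80 in the uncovered pools, which did not overlap, with goggle differences of 0.16 and 0.24. Its light difference of 0.07 in uncovered eyes became -0.15 after quantile normalization. ATP5J2, the f subunit, stayed between 4.48 and 4.59. The medians of complex V were 0.06 and 0.025 for goggles under violet and normal light and 0.03 and 0.08 for violet light in covered and uncovered eyes, and the light medians turned to -0.04 and -0.02 after quantile normalization. The goggle median of 0.025 under normal light became 0.226 with the mean of each gene's probes and 0.313 with the dimmest probe.

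**Figure D2:**
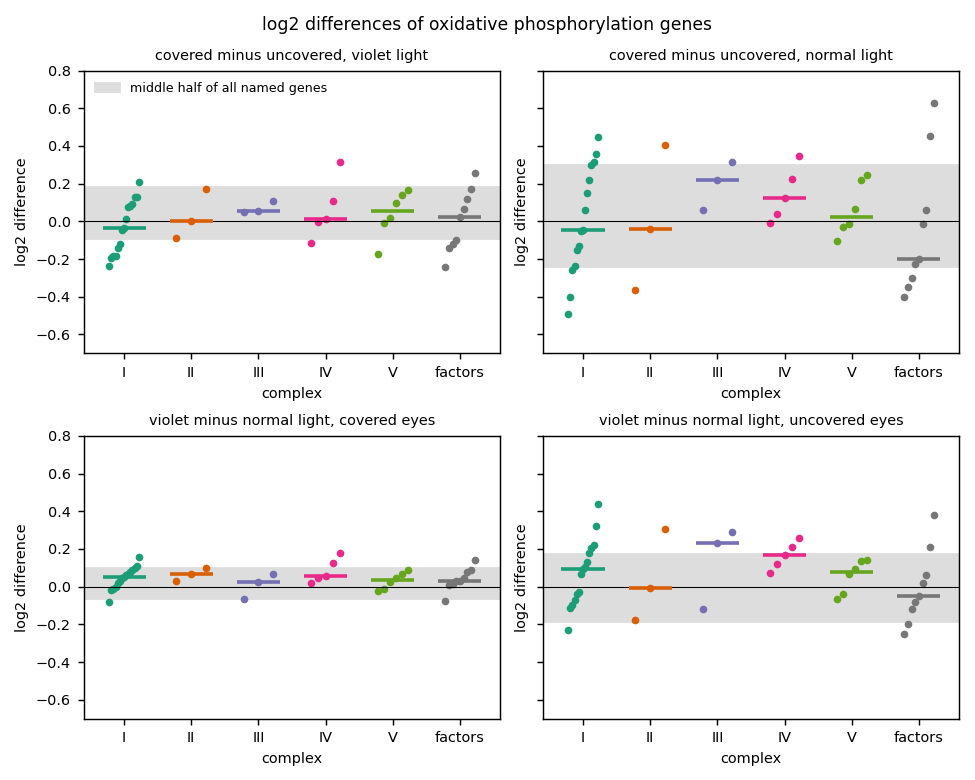
Log2 difference of each gene for goggles and for violet light, by complex, with 1 point per gene, a short line at each median and a grey band for the interquartile range of all genes. All subunits lie between -0.49 and 0.45 and most lie within 0.25 of 0, and on this scale only the assembly factor COX19 exceeds 0.5.

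The 9 assembly and coupling factors lay between -0.40 and 0.63 for goggles under normal light, where the subunits lay between -0.49 and 0.45. COX19, an intermembrane-space protein needed to build complex IV, had 0.49 and 0.57 in the covered violet-light and normal-light pools, against 0.32 and -0.06 in the uncovered violet-light and normal-light pools. Its goggle difference was 0.17 and 0.63 (1.55-fold under normal light), and its dimmer probe gave 0.14 and 0.31. With the brightest probe of each gene, COX19 was the single member of the 41 that reached 0.5 on this scale. Of all genes, 15.1% were that much higher and 9.4% lower with goggles under normal light. With the mean of each gene's probes 3 members were at least 0.5 higher in that comparison, beside 906 of 4807 genes. These were COX10 (1.21), NDUFV1 (0.97) and ATP5F1AZ (0.53), and COX19 was not among them. For goggles under normal light, quantile normalization and cyclic loess each gave 1 member at least 0.5 higher and 1 lower, the lower at -0.524 and -0.506, and median scaling gave 0 higher and 10 lower. COX10, which makes the heme O of complex IV, had 0.50 and 0.49 in the covered pools, against 0.25 and 0.04 in the uncovered violet-light and normal-light pools, and its pools did not overlap. NDUFAF5, a factor that modifies a complex I subunit, had 0.57 and 0.52 in the covered violet-light and normal-light pools and 0.81 and 0.75 in the uncovered pools, lower with goggles by 0.24 and 0.23. SDHAF2, which inserts the flavin into SDHA, had 1.63 and 1.62 in the covered pools and 1.77 and 2.02 in the uncovered pools of violet and normal light, and lay on the same side of 0 as SDHA. COX15, which makes heme A, lay within 0.20 of 0 in size in all 4 comparisons, and COX16, COX20, NDUFAF2 and the coupling factor ATP5S lay between -0.35 and 0.12. The median of the 9 was 0.02 and -0.20 for goggles under violet and normal light, and 0.03 and -0.05 for violet light in covered and uncovered eyes.

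Counted by whether the pools overlapped, 10 of the 32 subunits had both covered pools above both uncovered pools, a share of 31.2% beside 35% of all genes, and 10 had both below, beside 26.4%. Separation by more than 2 spot SD was shown by ATP5I, COX7A2 and NDUFB2 above (18% of all genes) and by NDUFA10, NDUFB8 and NDUFV3 below (11.7%). Of the 10 that lay below, 8 belong to complex I, which supplied 15 of the 32 subunits, and of the 10 above, 4 do. Within complex I these are 53.3% below and 26.7% above, beside 26.4% and 35% of all genes. Both violet-light pools lay above both normal-light pools for 8 of 32 subunits, beside 11.3% of all genes, and below for 2, beside 12.2%, and 0 did so by more than 2 spot SD in either direction, beside 1.91% and 5.41% of all genes. After quantile normalization the counts were 12 above and 9 below for goggles, beside 29.6% and 33% of all genes, and 2 above and 5 below for violet light, beside 9.65% and 12.9%.

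The sign of the small medians depended on the scaling. The subunits are bright genes: 29 of the 32 lie in the 2 brightest of 10 equal bins of the 4807 genes by mean signal. The median of all genes in the brightest bin was above 0 in all 4 comparisons, at 0.06 and 0.08 for goggles under violet and normal light and at 0.07 and 0.08 for violet light in covered and uncovered eyes. The 19 subunits in that bin had medians of 0.05, 0.124, 0.045 and 0.132 in the same order. In the next bin the medians of all genes were 0.024, -0.006, 0.054 and 0.005, and those of its 10 subunits -0.042, -0.085, 0.067 and -0.04. Quantile normalization gave subunit medians of -0.01 and 0.02 for goggles under violet and normal light and of 0.00 and 0.04 for violet light in covered and uncovered eyes, and the same medians over all genes were 0.00, -0.05, 0.01 and -0.04. On that scale the subunits above 0 were 15 and 19 of 32 for goggles under violet and normal light, beside 50.8% and 45.8% of all genes, and 16 and 18 for violet light in covered and uncovered eyes, beside 54.7% and 43.6%. When each array was centred on its median instead of its 75th percentile, the differences of all genes moved by one amount, -0.11 and -0.32 for goggles under violet and normal light and 0.04 and -0.17 for violet light in covered and uncovered eyes. The median for goggles under normal light was then -0.30 over all genes and -0.26 over the subunits. Relative to all genes the subunits were where they had been, but of the 13 subunits higher beyond spot error with goggles under normal light, 9 lay below 0, and NDUFB5, SDHD, NDUFB1 and COX7A2 stayed above it. Counts of all genes by direction moved too. For goggles under normal light, 225 genes were 2-fold higher and 68 lower, but 118 and 139 after quantile normalization. For violet light in uncovered eyes they were 59 and 81, but 35 and 114, and for goggles under violet light 19 and 33, but 14 and 40 with median scaling.

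**Figure D3:**
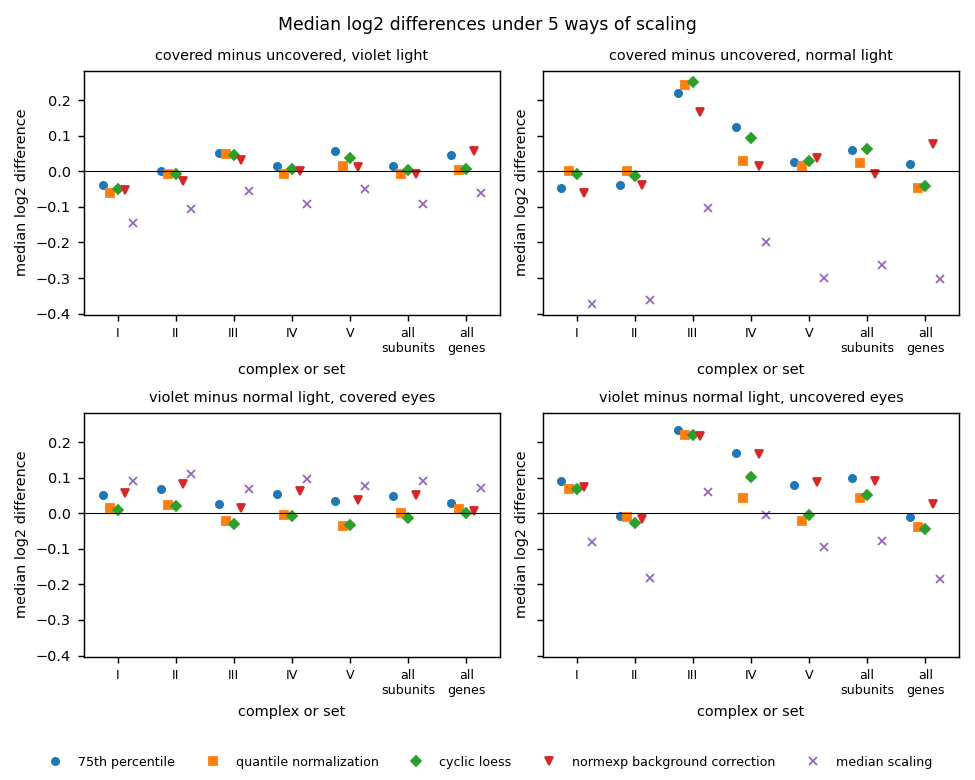
Median log2 difference of the subunits of each complex, of the 32 subunits together and of all 4807 genes in the 4 comparisons, with 1 symbol per scaling or background correction. The subunit median stays between -0.26 and 0.10 and changes sign between these settings in all 4 comparisons.

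Probes of one gene did not always give one difference. Of the 88 probes of the members, 6 reached 2-fold higher with goggles under normal light, beside 8.42% of all named probes, and 0 reached 2-fold lower, beside 1.05%. In uncovered eyes 2 probes were 2-fold higher under violet light, beside 2.42% of all named probes, and 0 were lower, beside 1.3%, and the other comparisons gave 0. All 6 probes had their lowest level in the uncovered normal-light pool. Their choice largely sets this, because each was taken for a level at least 2-fold lower there than in the covered normal-light pool. The largest difference was that of NDUFV1, whose dimmer probe had -0.12 and -0.07 in the covered violet-light and normal-light pools, against -0.51 and -1.71 in the uncovered pools, a goggle difference of 1.64 under normal light where the brighter probe gave 0.30. The dimmest probe of NDUFS1 had -1.50 and -1.40 in the covered pools and -1.92 and -2.65 in the uncovered pools (difference 1.25 under normal light), while its brightest probe gave -0.13. ATP5F1AZ and COX10 also had probes 2-fold apart in that comparison, so that 4 of the 28 members with at least 2 probes (14.3%) disagreed, beside 22.6% of all genes. The 6 probes of ATP5F1AZ gave goggle differences of -0.03, 1.01, 0.05, 0.80, 0.07 and 1.27 under normal light, from the brightest to the dimmest. The dimmer probes of COX10 gave 1.63 and 1.55, where its brightest gave 0.45. Both were very dim, with levels of -4.54 and -4.80 in the covered normal-light pool and -6.16 and -6.35 in the uncovered one. Differences of such dim probes depend strongly on how the arrays are scaled. Where the probes lie in their transcripts was not analysed here.

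**Figure D4:**
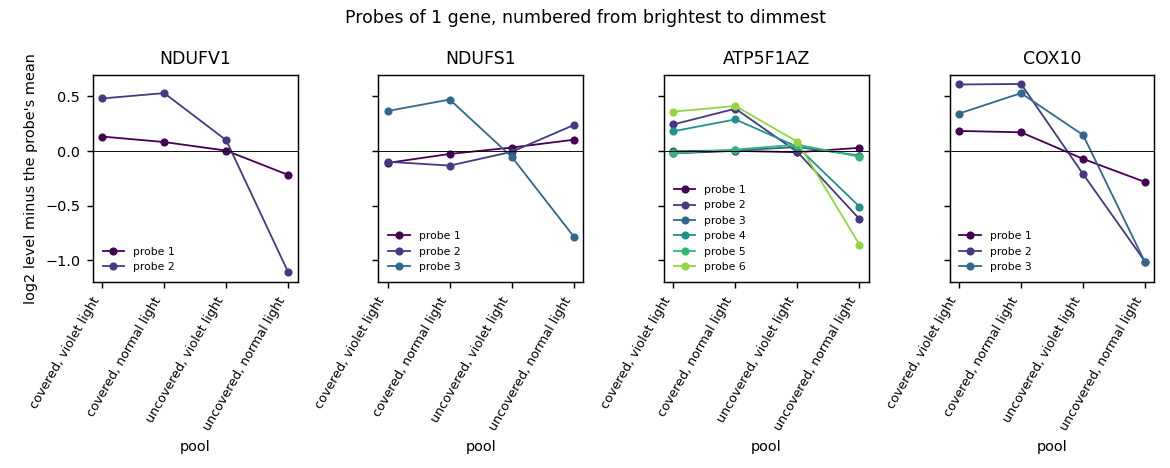
Log2 level of every probe of NDUFV1, NDUFS1, ATP5F1AZ and COX10 in the 4 pools, minus the probe's mean, with 1 line per probe, numbered from the brightest to the dimmest. The 6 probes with a goggle difference over 1 under normal light lie low in the uncovered normal-light pool, which follows from how that difference is defined.

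The citrate cycle and mitochondrial ribosome lists had medians near 0, while single genes of the mitochondrial lists lay farther off. CKMT1B, a mitochondrial creatine kinase, had goggle differences of 0.74 and 0.38 under violet and normal light, and MRPL15, of the mitochondrial ribosome, had -0.72 and -0.45. Under normal light MRPS34, MRPS7 and MRPS21, also of that ribosome, had -0.63, -0.53 and 0.51 with goggles, and IDH3A, of the citrate cycle, had -0.52. Of 18 listed genes of the citrate cycle, which feeds electrons to the chain, 11 were measured and 0 were 2-fold higher or lower, with medians of 0.010 and 0.005 for goggles under violet and normal light and of -0.04 and -0.04 for violet light in covered and uncovered eyes. The proteins that carry electrons and export ATP gave 9 of 16 genes, with 1 gene 2-fold higher with goggles under normal light and lower under violet light in covered eyes. This gene was SLC25A4, the ADP/ATP carrier of heart and muscle in mammals, with a difference of 1.46 for goggles under normal light and of -1.60 for violet light in covered eyes. In these same comparisons 10 of 11 measured striated-muscle markers (16 listed) were 2-fold higher with goggles under normal light and 9 of 11 lower under violet light in covered eyes. With goggles under violet light 6 of 11 were 2-fold higher (median 1.23), where SLC25A4 had only 0.18. For violet light in uncovered eyes the muscle median was -0.10 and SLC25A4 had -0.31. The summed level of the muscle markers was 5.62 and 27.1 in the covered violet-light and normal-light pools against 3.88 and 3.4 in the uncovered pools. Whether muscle tissue in the pool accounts for the SLC25A4 difference was not tested. The muscle isoforms COX6A2 and COX7A1 of complex IV were not analysed here. CYCS, cytochrome c, had differences of -0.26 and -0.11 with goggles under violet and normal light.

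Mitochondrial ribosomal protein genes gave medians of -0.003 and -0.02 for goggles under violet and normal light over 36 of 73 genes, with 0 at 2-fold. The cytosolic ribosome, likewise bright, gave 0.09 and 0.29 over 49 of 71 genes for goggles under violet and normal light, and 0.11 and 0.33 for violet light in covered and uncovered eyes. After quantile normalization the cytosolic ribosome medians shrank to 0.05 and 0.15 for goggles and to 0.04 and 0.14 for violet light, in the same orders. The subunit medians lay below those of the cytosolic ribosome in all 4 comparisons on both scales. Glycolysis, the other source of retinal ATP, gave 0.13 and 0.18 for goggles over 12 of 17 genes, but 0.02 and -0.08 after quantile normalization. In it HK2, a hexokinase, was 1.40 higher with goggles under normal light and 1.31 higher under violet light in uncovered eyes, with its lowest level (-1.34) in the uncovered normal-light pool. Among 6 measured regulators of mitochondrial genes (14 listed), 0 of 6 reached 2-fold. PPARGC1A had goggle differences of 0.48 and 0.73 and GABPA of -0.14 and -0.67 under violet and normal light. PPARGC1A was dim, with levels of -4.28 and -4.55 in the covered violet-light and normal-light pools and -4.77 and -5.29 in the uncovered ones. For goggles under normal light, the median of all genes in the dimmest bin was 0.17, but -0.24 after quantile normalization. GABPB1, the partner of GABPA in the factor that drives subunit genes, had 0.46 and 0.81, on the opposite side of 0. TFAM, which packages mitochondrial DNA, had -0.08 and -0.29. The import list was taken by symbols that begin with TOMM or TIMM, and a role in import was not checked for each gene. Its 4 measured genes (19 listed) gave 0.15 and 0.22 for goggles, and 3 genes of uncoupling and defence (6 listed) 0.09 and -0.05. Under normal light the import list ranged from 0.108 (TIMM44) to 0.375 (TIMMDC1).

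Markers of other cells also differed between the pools. The 12 lens markers (14 listed) had medians of -1.41 and 0.67 for goggles under violet and normal light and of -0.38 and 1.87 for violet light in covered and uncovered eyes. Their summed level was 4.81 and 6.82 in the covered violet-light and normal-light pools against 17.1 and 4.34 in the uncovered pools. With goggles, 1 lens marker lay above 0 and 11 below under violet light. Under normal light 7 lay above and 5 below, from -0.749 (MIP) to 4.321 (CRYBA2). For violet light 4 lay above 0 and 8 below in covered eyes, and 8 above and 4 below in uncovered eyes. With violet light, 5 endothelial markers (8 listed) had medians of -1.25 and -1.51 and 7 connective-tissue markers (8 listed) of -1.29 and -1.27 in covered and uncovered eyes. KDR, the brightest of the 5 endothelial markers, had only -0.13 and -0.11. The summed endothelial level was 4.28 and 5.28 in the covered violet-light and normal-light pools against 4.22 and 5.57 in the uncovered pools. The connective-tissue sums were 6.54 and 15.0 against 6.52 and 17.0. For goggles under violet and normal light the endothelial medians were -0.103 and -0.369 and the connective-tissue medians 0.063 and 0.239. After quantile normalization those under normal light became -0.72 and -0.178, so the connective-tissue sign depended on the scaling. Under normal light 4 connective-tissue markers lay above 0 and 3 below, from -0.603 (COL1A2) to 2.048 (POSTN). The 4 red-cell markers (8 listed) had medians of -0.30 and -0.35 with violet light in covered and uncovered eyes and of 0.095 and 0.014 for goggles under violet and normal light, where they lay between -0.309 and 0.495 under normal light. The part of these cells in the small subunit differences was not tested.

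**Figure D5:**
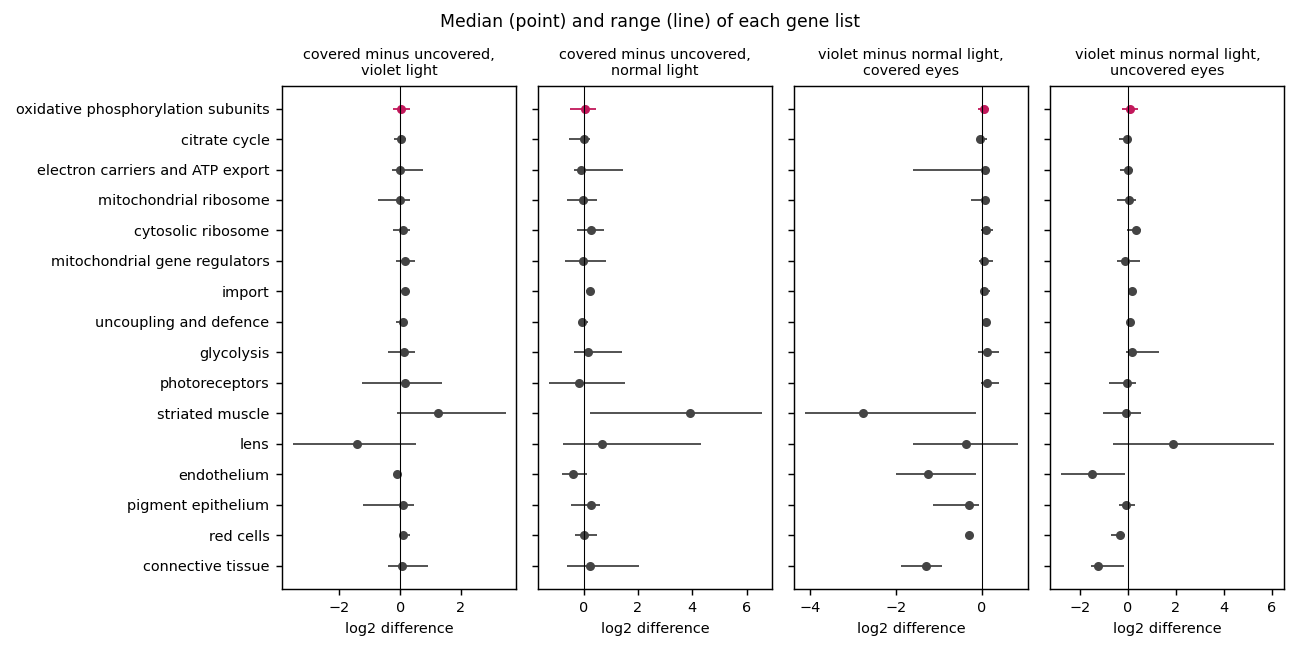
Median (point) and range (line) of the log2 differences of the subunits and of the other gene lists in the 4 comparisons. The subunit, citrate cycle and mitochondrial ribosome medians lie within 0.10 of 0, and striated muscle stands out with a median of 3.91 for goggles under normal light.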

How the data were processed

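Each pool was read with Agilent Feature Extraction 11.5.1.1, per the submitters' processing notes. For every spot the deposited scanner files hold an intensity, which the scanner program had background-subtracted and detrended, per the file headers, with no scaling between arrays, and 0 or 1 marks (another unit, as deposited) for background, saturation and outliers. The value table deposited by the authors gives intensity on a linear scale, with column medians of 218.67 (covered violet light), 218.35 (covered normal light), 218.57 (uncovered violet light) and 218.39 (uncovered normal light). Its genes are not centred and a higher value means more signal, as in the scans. Its covered violet-light and uncovered normal-light columns are crossed with the scans, so differences taken by its labels need not share their sign. No source used here gives its normalization.

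Of 43803 spots that are no controls, repeated spots were averaged, giving 43603 probes. Of these, 26 with an outlier mark were left out, and no spot was saturated. The log2 processed signal was taken relative to each array's 75th percentile. RefSeq accessions of the probes, without versions, were looked up among RefSeq genes (GRCg7b), which gave 11711 probes 1 symbol, 0 several and 31892 none. The array design rests on an older chicken build, per the file headers, so no coordinates are given. A probe had to be well above background on all 4 arrays; 35407 passed, 10418 of them named, and the brightest passing probe stands for its gene. With 1 array per group, genes are counted at 2-fold and at a log2 difference of 0.5, and no p-value exists.

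Named genes are the highest and lowest subunit of each complex in each comparison, core subunits, isoform partners, members at 2-fold and the extreme assembly factors. Members and lists were chosen with earlier results of these data known. The ribosome list leaves out kinases and binding proteins of ribosomal proteins. Alternatives were quantile, cyclic loess and median scaling, normexp (offset 50), no filter on dim probes, the mean or the dimmest probe, the table's labels, the table's values and all members. Normexp was run on the median spot signal in place of the planned mean signal, and naming by a gene name column was not run. Protein and promoter sequences were not analysed here. R 4.3.3 with limma 3.58.1 and Python 3.11.15 with pandas 2.3.3 and numpy 2.4.6 were used, and the steps were tested on simulated data.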

Additional observations from a re-analysis of the deposited data

How the results depend on the processing

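No paired analysis was possible because each group is 1 pool and no test was made. The median log2 difference of the 32 subunits was 0.015 for goggles under violet light and became -0.093 with median scaling, -0.098 with the table's labels and -0.084 with the authors' value table. For goggles under normal light it was 0.060 and became -0.264 with median scaling, -0.008 with normexp and -0.049 with the table's labels. In covered eyes the median for violet light was 0.049 and became -0.060 with the table's labels and -0.090 with the authors' value table. For violet light in uncovered eyes it was 0.098 and turned to -0.077 with median scaling, -0.015 with the table's labels and -0.001 with the authors' value table. With the dimmest probe of each gene, an alternative chosen after seeing the data, 3 subunits were 2-fold higher with goggles under normal light and 1 under violet light in uncovered eyes, against 0 with the brightest, and with that probe 551 and 167 of 4807 genes were 2-fold higher; the count of 2-fold subunits was 0 in every other setting. By complex, the medians of complex III for goggles under normal light turned to -0.103 with median scaling and -0.027 with the table's labels, and for violet light in uncovered eyes to -0.053 with the table's labels and -0.041 with the authors' table. The median of complex IV for violet light in uncovered eyes turned to -0.004, -0.015 and -0.002 with median scaling, the table's labels and the authors' table. The causes of these shifts were not tested. No subunit beyond 2 spot SD in the reported values turned sign with quantile normalization or cyclic loess, while ATP5I had 0.07 for violet light in uncovered eyes and became -0.147 with quantile normalization. Naming by a gene name column was not run. The number of arrays limits the precision, and dim probes carry less signal over background.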
